A study of Mus musculus with 2 samples.

Results

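Myeloid lineage transcription factors were measured as 10 genes, Spi1, Cebpa, Cebpb, Cebpd, Cebpe, Gfi1, Irf4, Irf8, Klf4 and Zbtb46, taken by symbol from 48709 gene rows in 2 single-cell RNA libraries of mouse cochlea. UMIs, unique molecular identifiers that each count 1 captured transcript, were found for 9 of the 10 genes. The first library held cells of cochleae that carried an implanted electrode, collected 33 days after implantation. The second held cells of non-implanted cochleae; the series text names the opposite ear, but the sample labels do not. Both libraries came from C57BL/6J mice carrying Cx3cr1+/GFP and Thy1+/YFP, with males and females pooled, after selection of CD11b+ cells on magnetic beads. The series title speaks of dexamethasone-eluting and standard electrode arrays, and the labels do not say which kind these ears received or how many animals were pooled. With 1 library in each group, no difference between implanted and non-implanted cochleae could be tested, and cells of 1 library are not replicates.

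Blood cells of the myeloid line arise from shared progenitors under the control of a small set of transcription factors. Spi1 encodes PU.1, an ETS factor needed for both granulocytes and macrophages. The C/EBP proteins are basic leucine zipper factors: C/EBP-alpha acts at the entry into the granulocyte and monocyte line, C/EBP-epsilon in the promyelocyte and later granule-forming stages, and C/EBP-beta in mature and emergency granulopoiesis and in macrophages. Gfi1 encodes a zinc finger repressor that favours neutrophils over monocytes. Irf8 and Klf4 encode factors that favour monocytes, Irf4 serves B cells and a branch of the conventional dendritic cells, and Zbtb46 marks committed conventional dendritic cells. In bone marrow these factors are switched on and off in sequence as a cell matures.

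RefSeq promoter windows, from 250 bases before to 50 bases after the annotated start, were at hand for 7 of the 10 genes. Of these, 3 are shown because their genes had their highest levels in different cell classes below: Gfi1 in promyelocyte-like cells, Cebpb in activated neutrophil-like cells and Irf4 in B cell-like and dendritic cells. They are given 5′ to 3′ on the gene's strand, from GRCm38.p6, with matches of the searched motifs in capitals. The windows are chr5:107725756-107726055 on the minus strand for Gfi1, chr2:167688665-167688964 on the plus strand for Cebpb and chr13:30748983-30749282 on the plus strand for Irf4.
Gfi1: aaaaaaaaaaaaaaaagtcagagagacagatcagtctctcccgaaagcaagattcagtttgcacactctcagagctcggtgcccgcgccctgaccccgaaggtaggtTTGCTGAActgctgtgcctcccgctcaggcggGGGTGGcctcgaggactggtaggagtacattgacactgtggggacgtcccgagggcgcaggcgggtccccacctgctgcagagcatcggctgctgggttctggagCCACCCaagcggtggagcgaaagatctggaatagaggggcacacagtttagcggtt
Cebpb: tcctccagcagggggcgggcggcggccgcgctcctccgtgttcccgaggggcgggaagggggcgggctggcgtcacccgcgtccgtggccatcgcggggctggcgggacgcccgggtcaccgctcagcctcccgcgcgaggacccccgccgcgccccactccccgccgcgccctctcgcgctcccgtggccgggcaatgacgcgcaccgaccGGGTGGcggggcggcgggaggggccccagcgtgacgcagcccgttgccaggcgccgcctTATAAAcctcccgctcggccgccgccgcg
Irf4: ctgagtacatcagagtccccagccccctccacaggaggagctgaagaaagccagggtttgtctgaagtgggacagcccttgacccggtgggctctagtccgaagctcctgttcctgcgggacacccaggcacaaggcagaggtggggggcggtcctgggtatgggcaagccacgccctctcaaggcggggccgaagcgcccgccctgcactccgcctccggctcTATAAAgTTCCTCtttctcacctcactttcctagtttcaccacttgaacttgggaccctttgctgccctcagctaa
The motifs, searched on both strands, were the TATA box TATAAA, the C/EBP motif TTGCNNAA and the ETS core GAGGAA. The cyclic AMP response element TGACGTCA and the KLF CACCC box CCACCC were searched too. In TTGCNNAA, N is any base, so a match need not be a palindrome. RefSeq gives 2 windows for Gfi1, and the other (chr5:107724294-107724593, minus strand) held none of these motifs. The Gfi1 window shown held 1 match of the C/EBP motif, TTGCTGAA, at 143 to 136 bases before the start, and 2 CACCC boxes. The Cebpb window held 1 CACCC box before the start and 1 TATAAA after it. The Irf4 window held TATAAA and the ETS core side by side, just before the start. Of 32851 windows, 10.8% held the C/EBP motif, 31.5% the CACCC box, 13.6% TATAAA, 28.3% the ETS core and 1.79% the cyclic AMP element. These matches are letters in a window and were not measured as binding sites.

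After filtering, 3065 implanted cells (median 4237 UMIs) and 3411 non-implanted cells (median 4144 UMIs) remained. The 2 libraries shared 6 cell barcodes. Cells were clustered without the 10 genes and named from marker genes as classes. Promyelocyte-like cells numbered 68 implanted and 46 non-implanted, cycling neutrophil precursor-like cells 319 and 360, immature neutrophil-like cells 428 and 638, transitional neutrophil-like cells 320 and 194, mature neutrophil-like cells 717 and 1098, and activated neutrophil-like cells 445 and 425. Monocyte-like cells numbered 310 implanted and 270 non-implanted, macrophage-like cells 245 and 186, conventional dendritic cell-like cells 33 and 54, B cell-like cells 37 and 24, and erythroid-like cells 77 and 41. The remaining classes had under 50 cells over both libraries. Itgam, which encodes CD11b, was listed at 0 UMIs in every class, so the selection could not be checked on its own gene. A further limit concerned barcodes outside the neutrophil classes with at least 1% of their UMIs from the neutrophil granule genes Camp, Ngp, Ltf and Lcn2, called mixed barcodes here. They were 20 of 310 implanted and 16 of 270 non-implanted monocyte-like cells, and 23 of 245 implanted and 23 of 186 non-implanted macrophage-like cells. Levels are given as CPM, the gene's UMIs per 1000000 UMIs of the class, and all intervals are 95% intervals that cover counting error only.

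**Figure D1:**
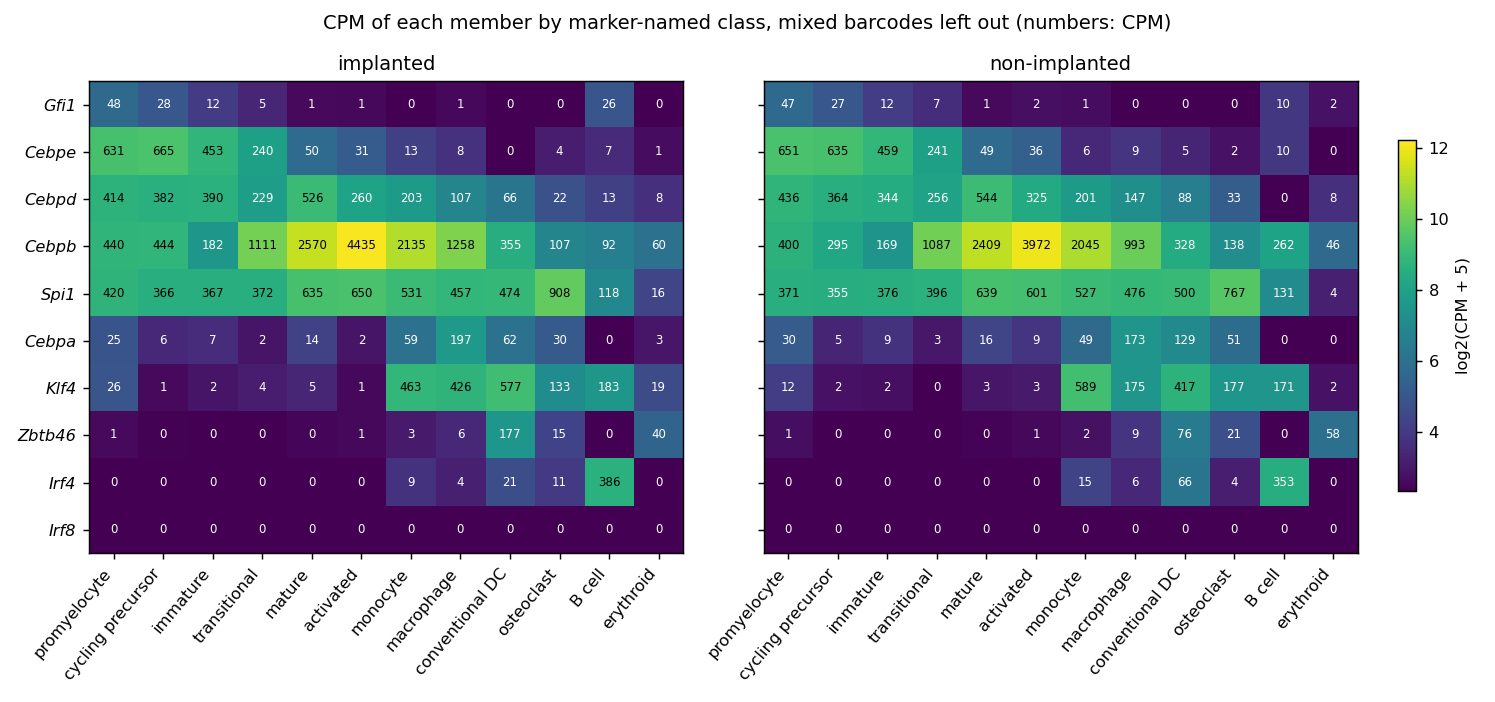
Level of each of the 10 genes in 12 marker-named classes, implanted library on the left and non-implanted library on the right, with colour as log2(CPM + 5) and CPM written in each cell. Mixed barcodes are left out. Cebpb reached 4435 CPM in implanted and 3972 CPM in non-implanted activated neutrophil-like cells, Irf8 was at 0 throughout, Irf4 was at 0 in the 6 neutrophil classes, and there Klf4 had at most 25.7 CPM and Zbtb46 at most 1.38 CPM in either library.

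Irf8 (chr8:120736358-120756694, plus strand), the interferon regulatory factor that steers progenitors to monocytes and dendritic cells, had 0 UMIs in both libraries. Taken alone, that count would allow at most 0.162 CPM over all implanted cells and 0.147 CPM over all non-implanted cells. The gene lies inside the span of the annotated gene Gm20388 (chr8:119910841-124345722, plus strand), which had 7082 implanted and 8161 non-implanted UMIs. Within that span, 36 protein-coding genes of the same strand were all listed at 0 UMIs, and Gm20388 itself stood between 238 and 534 CPM in every class. In the annotation used here, 0 of the 36 genes, Irf8 among them, shared an exon with Gm20388. The counts therefore give no level for Irf8, and whether its reads were assigned to the longer gene was not tested.

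The factor that forms the base of the myeloid program, Spi1 (chr2:91082390-91115756, plus strand), was found in every neutrophil and mononuclear class. It had 635 CPM in implanted and 639 CPM in non-implanted mature neutrophil-like cells, and 650 CPM in implanted and 601 CPM in non-implanted activated neutrophil-like cells. The 4 earlier neutrophil classes lay between 366 and 420.0 CPM in the implanted library and between 355 and 396 CPM in the non-implanted library. Both mature classes were thus above all earlier ones in each library, while promyelocyte-like, transitional and immature cells overlapped each other. Monocyte-like cells had 522 CPM implanted and 506 CPM non-implanted, and macrophage-like cells 461 and 427 CPM. Osteoclast-like cells, which arise from the same precursors as macrophages, had the highest level, 908 CPM implanted and 760 CPM non-implanted, in only 12 and 28 cells. Erythroid-like cells, in which PU.1 is silenced during maturation, had 29.2 CPM implanted and 26.7 CPM non-implanted, and 7.63% of them held a Spi1 UMI, against 78.2% of mature neutrophil-like cells over both libraries. Without their 3 mixed barcodes the erythroid-like cells had 16.0 CPM implanted and 4.03 CPM non-implanted, from 12 and 2 UMIs.

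Gfi1 and Cebpe, the pair of factors tied to the early and granule-forming neutrophil stages, were highest in the youngest cells and lower in later ones. Gfi1 (chr5:107716657-107726036, minus strand) had 48.5 CPM in implanted and 46.9 CPM in non-implanted promyelocyte-like cells, and 27.5 and 26.9 CPM in cycling precursors. It then had 11.9 CPM implanted and 12.1 CPM non-implanted in immature, 5.49 and 7.35 CPM in transitional, and 0.991 and 0.948 CPM in mature neutrophil-like cells. From promyelocyte-like to transitional cells each class lay above the next in both libraries. Over both libraries a Gfi1 UMI was found in 36.0% of promyelocyte-like cells (41 of 114, interval 27.2% to 45.5%), 26.1% of cycling precursors, 6.85% of immature cells and 0.275% of mature cells, against 0.847% of erythroid-like cells. After thinning each cell to 1000 UMIs, which removes the difference in depth between a median of 14819 UMIs in promyelocyte-like and 2719 UMIs in mature cells, the shares were 3.51%, 2.82%, 1.80% and 0.0558%, in the same order. Few cells held a Gfi1 UMI at that depth, so the order of promyelocyte-like, cycling and immature cells was not resolved there. Reads of Gfi1 and of the overlapping antisense gene A430072P03Rik, which had 43 implanted and 55 non-implanted UMIs, could be shared.

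Cebpe (chr14:54710360-54712174, minus strand), which drives genes of the secondary granules, had 631 CPM in implanted and 651 CPM in non-implanted promyelocyte-like cells and 665 and 635 CPM in cycling precursors. These 2 classes overlapped. Its level was 453 CPM implanted and 459 CPM non-implanted in immature cells, 240.2 and 240.8 CPM in transitional cells, 50.0 and 49.3 CPM in mature cells, and 31.5 and 36.1 CPM in activated cells. Every step from cycling precursors to mature cells was larger than the distance between the libraries. Cebpe UMIs were found in 98.2% of promyelocyte-like and 96.8% of cycling precursor-like cells, and in 10.8% of mature cells, against 4.92% of B cell-like cells. Of the 41 promyelocyte-like cells with a Gfi1 UMI all 41 also had Cebpe, and of 177 such cycling precursors 176 did, so nearly every cell in which Gfi1 was seen also held Cebpe. Since Cebpe was found in nearly every cell of those classes, that overlap follows from its own share.

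Cebpe UMIs outside the neutrophil classes moved with the mixed barcodes. Macrophage-like cells had 55.5 CPM implanted and 111 CPM non-implanted with all barcodes, and 8.19 and 8.82 CPM without the mixed ones. Monocyte-like cells had 54.4 and 59.3 CPM with all barcodes, and 13.4 and 6.14 CPM without the mixed ones. The macrophage clusters led by Mertk, Ccl12 and Itga9, none of which held a mixed barcode, had 0 Cebpe UMIs in both libraries.

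The other C/EBP genes did not follow that order. Cebpb (chr2:167688915-167690418, plus strand), whose protein serves inflammatory gene expression in mature granulocytes and macrophages, had its lowest neutrophil level in immature cells, 182 CPM implanted and 169 CPM non-implanted. It reached 1111 CPM implanted and 1087 CPM non-implanted in transitional cells, 2570.3 and 2409 CPM in mature cells, and 4435 and 3972 CPM in activated cells. Promyelocyte-like cells had 440.0 CPM implanted and 400.0 CPM non-implanted, and cycling precursors 444 and 295 CPM, so the immature cells had the lowest level of the 6 classes in both libraries. Within the mature cells, the cluster led by Retnlg had 1776 CPM implanted and 1647 CPM non-implanted, the cluster led by Ifitm1 had 3643 and 3389 CPM, and the interferon-led cluster with Rsad2 and Ifit1 had 2854 and 2693 CPM. Cebpb UMIs were found in 98.9% of activated cells, and in 21.3% of B cell-like cells, whose levels of 91.6 CPM implanted and 375 CPM non-implanted rested on 14 and 41 UMIs.

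Cebpd (chr16:15887286-15891031, plus strand), a C/EBP gene induced by cytokines, peaked at neither end. It had 526 CPM implanted and 544 CPM non-implanted in mature cells, 414 and 436 CPM in promyelocyte-like cells, and 382 and 364 CPM in cycling precursors. The transitional cells had 229 CPM implanted and 256 CPM non-implanted, and activated cells 260 and 325 CPM, so mature cells stood above the classes on both sides of them in each library. Spidr, an antisense gene that overlaps the 3′ end of Cebpd, had 1740 implanted and 2165 non-implanted UMIs. Tmem189, antisense to Cebpb, overlaps its 5′ part, with 149 implanted and 171 non-implanted UMIs. Reads of such pairs could be shared where counting ignores strand.

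Cebpa (chr7:35119293-35121928, plus strand), the factor of the granulocyte and monocyte entry, was low in the whole neutrophil line. It had 24.7 CPM in implanted and 30.3 CPM in non-implanted promyelocyte-like cells, 5.74 and 5.06 CPM in cycling precursors, and 13.9 and 15.8 CPM in mature cells. Among the named classes its highest level was in macrophage-like cells, with 166 CPM implanted and 145 CPM non-implanted, above conventional dendritic cell-like cells with 61.9 and 129 CPM and monocyte-like cells with 51.6 and 44.0 CPM. An unnamed cluster of 21 cells, 12 implanted and 9 non-implanted, had 255 CPM over both libraries. No Cebpa UMI was found in 61 B cell-like cells. Among promyelocyte-like cells, 48.7% of the 39 cells with Cebpa also had Gfi1, against 29.3% of those without, and the cells with both had a median of 14563 UMIs, near the class median.

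**Figure D2:**
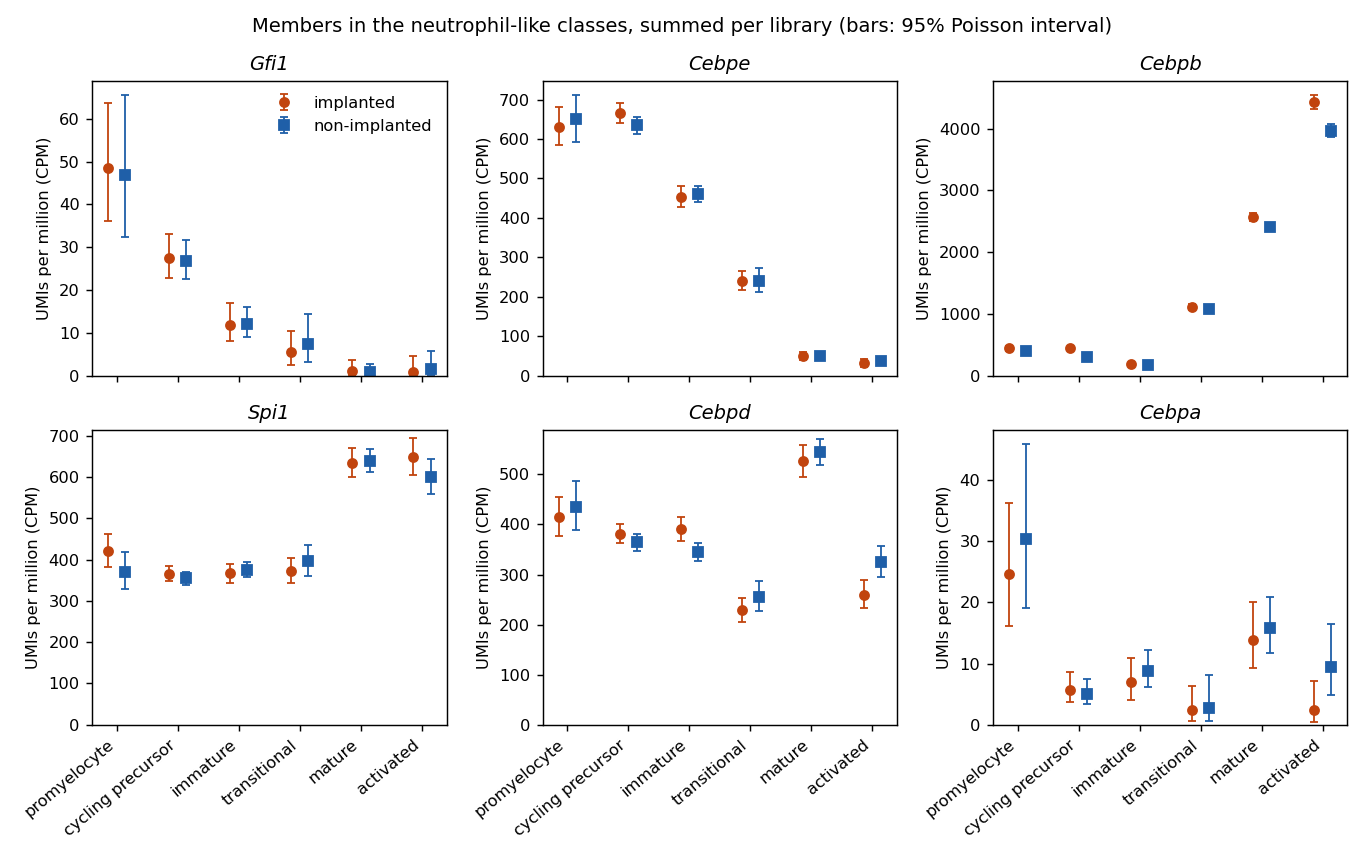
Gfi1, Cebpe, Cebpb, Spi1, Cebpd and Cebpa along the 6 neutrophil-like classes, in CPM summed per library, with implanted as circles left of non-implanted as squares and bars as 95% Poisson intervals. Gfi1 and Cebpe are lower in later classes, Cebpb has 182 CPM implanted and 169 CPM non-implanted in immature cells and 4435 and 3972 CPM in activated cells, and Cebpd has its highest level in mature cells.

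Klf4 (chr4:55527143-55532466, minus strand), a Krüppel-like factor needed for monocyte formation, separated the mononuclear classes from neutrophils. It had 577 CPM in implanted and 417 CPM in non-implanted conventional dendritic cell-like cells, 419 and 527 CPM in monocyte-like cells, and 384 and 191 CPM in macrophage-like cells. With all barcodes the dendritic and monocyte values overlapped, and both stood above the macrophage values. Without mixed barcodes, macrophage-like cells had 426 CPM implanted and 175 CPM non-implanted, so that the implanted macrophage value lay above the non-implanted dendritic one. In promyelocyte-like cells it had 25.7 CPM implanted and 12.4 CPM non-implanted, from 27 and 9 UMIs, and in the later neutrophil classes at most 5.45 CPM in either library. Klf4 was not confined to the mononuclear classes: B cell-like cells had 183 CPM implanted and 155 CPM non-implanted, from 28 and 17 UMIs. The 20 cells named fibroblast or osteoblast, 4 of them mixed barcodes, had 555 CPM over both libraries. A Klf4 UMI was found in 75.5% of monocyte-like, 67.8% of conventional dendritic cell-like and 33.2% of macrophage-like cells, against 1.69% of erythroid-like cells. After thinning the shares were 33.9%, 35.6% and 15.0%, against 0.893%. Of the 114 promyelocyte-like cells, 11 had Klf4, and 3 of these also had Gfi1.

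Klf4 and Cebpb differed in opposite directions between the monocyte-like clusters led by Vcan and by Arhgef37. In the cluster led by Vcan, Klf4 had 287 CPM implanted and 327 CPM non-implanted, and Cebpb 2763 and 2693 CPM. In the cluster led by Arhgef37 and F13a1, with Ccr2 among its leading genes, Klf4 had 649 CPM implanted and 816 CPM non-implanted, and Cebpb 1304 and 1338 CPM. The libraries of each cluster lay well apart from those of the other cluster for both genes. Cebpa was also higher in the second cluster, with 108 CPM implanted and 64.1 CPM non-implanted against 25.4 and 37.9 CPM in the first. In the remaining cluster, led by Adgre4, Pparg and Ace, 31 of 82 barcodes were mixed, Klf4 had 285 CPM implanted and 295 CPM non-implanted, and Cebpa had 0 and 4 UMIs. Over both libraries that cluster had 290.1 CPM of Klf4 and 1143 CPM of Cebpb with all barcodes, and 679 CPM of Klf4 and 2376 CPM of Cebpb without the mixed ones.

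The macrophage-like clusters covered a wide range for the same genes. Klf4 had 690 CPM implanted and 233 CPM non-implanted in the cluster led by Ccl12, 252 and 247 CPM in that led by Saa3, and 186 and 169 CPM in that led by Mertk and Mrc1. In the cluster led by Retnla it had 27.0 CPM implanted and 13.8 CPM non-implanted, from 5 and 2 UMIs; these cells were shallow, with a median of 1095.5 UMIs, and carried 57797 CPM of the neutrophil gene S100a8 over both libraries, whose part in the value was not tested. Cebpa was highest in the Ccl12 cluster, at 364 CPM implanted and 375 CPM non-implanted, followed by the Mertk cluster at 232 and 192 CPM. Cebpb ran from 336 CPM implanted and 338 CPM non-implanted in the Mertk cluster to 1378 and 1833 CPM in the Retnla cluster. Over both libraries the Retnla cluster also carried 12013 CPM of Retnlg, a neutrophil gene not used to define mixed barcodes. Of its 184 barcodes, 14 were mixed. Mature neutrophil-like cells had 2472 CPM of Cebpb, and the part of neutrophil RNA in the Cebpb level of the Retnla cluster was not tested. In the Saa3 cluster 26 of 51 barcodes were mixed, and without the mixed ones it had 1832 CPM of Cebpb over both libraries, against 1725 CPM in the Retnla cluster. The cluster led by Mmp12, Spp1 and Gpnmb had 64 implanted and 3 non-implanted cells, and its implanted cells had 526 CPM of Klf4, 1223 CPM of Cebpb and 174 CPM of Cebpa. Without mixed barcodes, Klf4 was seen in 56.6% of the 129 macrophage-like cells with a Cebpa UMI and in 18.4% of the others, but the cells with both had a median of 7569 UMIs, against 3281 UMIs in the class.

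Zbtb46 (chr2:181387762-181459426, minus strand) marked the conventional dendritic cell-like cells, with 177 CPM implanted from 43 UMIs and 75.8 CPM non-implanted from 30 UMIs. Macrophage-like cells had 4.57 CPM implanted and 10.3 CPM non-implanted, and monocyte-like cells 2.79 and 2.12 CPM. Over both libraries, 34.5% of the 87 dendritic cells held a UMI (interval 24.6% to 45.4%), against 0.110% of mature neutrophil-like cells. The subcluster led by Fscn1 and Ccl22, with Ccr7, had 224 CPM implanted and 139 CPM non-implanted. That led by Cd209a and Clec10a had 211 and 78.7 CPM, and that led by H2-Eb1 and Cxcl9 had 0 UMIs implanted and 36.0 CPM non-implanted. Over both libraries the second highest class was not a dendritic one: erythroid-like cells had 38.1 CPM implanted and 55.3 CPM non-implanted, from 30 and 29 UMIs.

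Irf4 (chr13:30749226-30766976, plus strand), which serves plasma cell formation and the Cd209a-bearing dendritic branch, was highest in B cell-like cells, at 386 CPM implanted and 393 CPM non-implanted. The 10 plasmacytoid dendritic cell-like cells had 97.3 CPM over both libraries, from 1 implanted and 6 non-implanted UMIs. Conventional dendritic cells had 20.6 CPM implanted and 65.7 CPM non-implanted, from 5 and 26 UMIs, and within them the Cd209a subcluster had 39.6 and 101 CPM. Monocyte-like cells had 8.37 CPM implanted and 13.2 CPM non-implanted. In the 6 neutrophil classes no Irf4 UMI was found in 2297 implanted and 2761 non-implanted cells, which allows at most 0.236 and 0.192 CPM. Among the dendritic cells, 8 of the 19 with Irf4 and 24 of the 59 with Klf4 also held Zbtb46, against 30 of all 87.

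**Figure D3:**
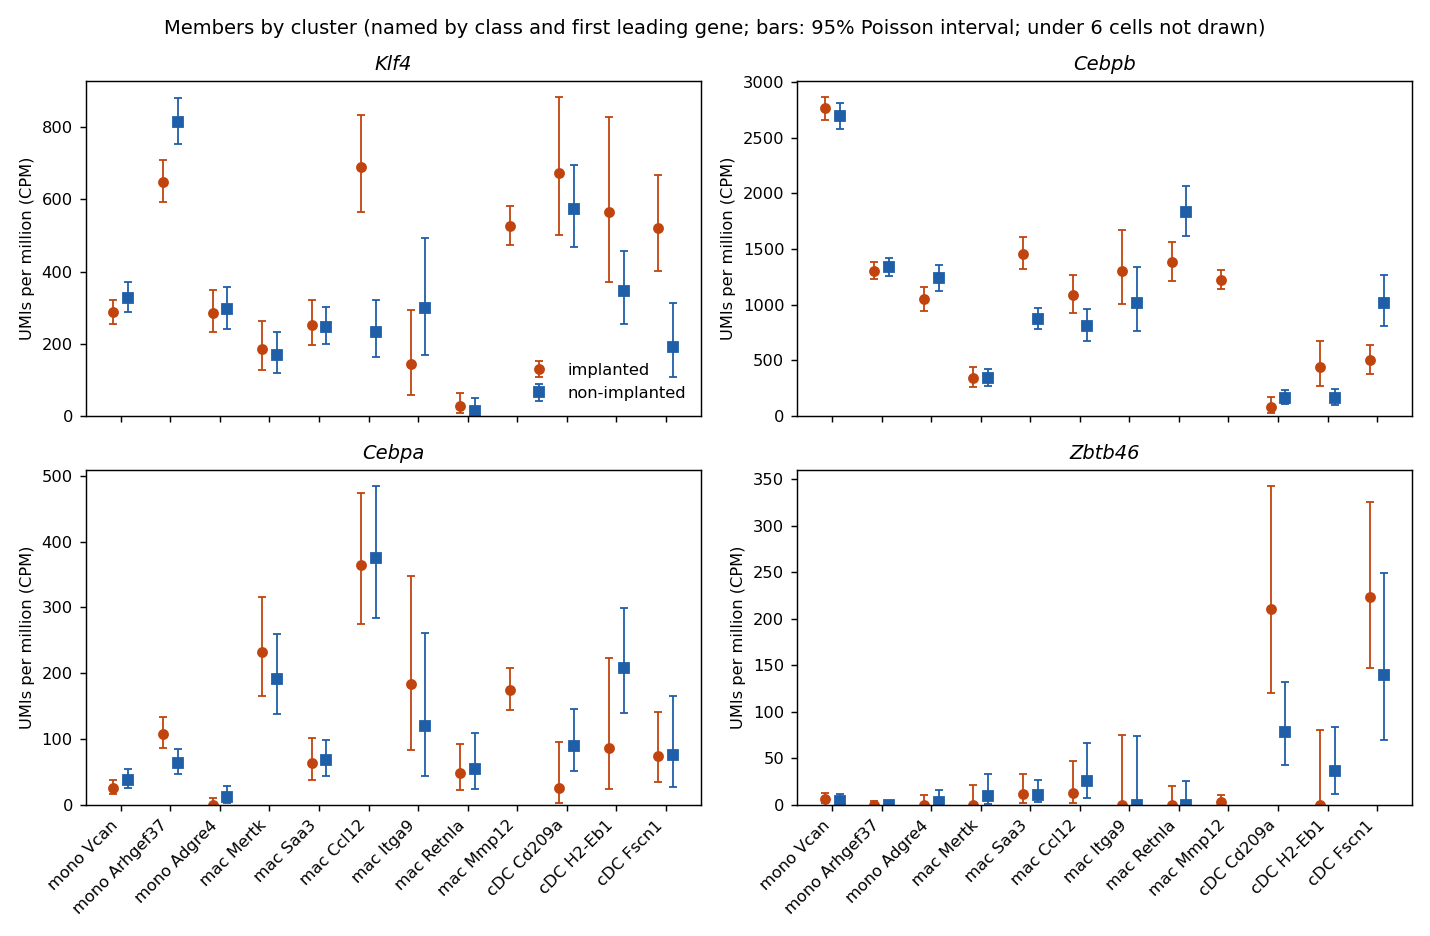
Klf4, Cebpb, Cebpa and Zbtb46 in the monocyte-like (mono), macrophage-like (mac) and conventional dendritic cell-like (cDC) clusters, named by their first leading gene, in CPM with 95% Poisson intervals, implanted as circles left of non-implanted as squares. Clusters with under 6 cells of a library show no point for it, as in the Mmp12 cluster with 3 non-implanted cells. Klf4 and Cebpb are ordered oppositely in the first 2 monocyte clusters, and the highest Zbtb46 values are those of the Cd209a and Fscn1 dendritic clusters.

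Over 14 points, the 7 classes with at least 50 cells in each library taken per library, the patterns of the genes were compared with 9416 others by Pearson's r of log2(CPM + 5), as a description. The points share their libraries and their clustering. The closest to Cebpe were Myb (r = 0.987), Apmap and Serpinb1a, and those to Gfi1 were Tfdp1 (r = 0.941), Tuba4a and 1810037I17Rik. For Cebpb they were Sh2b2 (r = 0.991), Nup98 and Hif1a, for Cebpd Zfand4 (r = 0.941), Phf20l1 and Ogfrl1, and for Spi1 1600010M07Rik (r = 0.987), Map3k5 and AU019990. For Klf4 they were Msr1 (r = 0.995), Zscan26 and Tbc1d9, and for Cebpa Hexa (r = 0.982), Tnfaip1 and Brd2. Irf4, Irf8 and Zbtb46 had under 200 UMIs and were not compared with the other genes. Among the members, Cebpe and Gfi1 had r = 0.921, Klf4 and Cebpa r = 0.895, Cebpe and Cebpb r = -0.909, and Cebpe and Spi1 r = -0.918. With the genes of few UMIs, Irf4 and Klf4 had r = 0.941, and Zbtb46 and Cebpa r = 0.898. The 14 points leave out B cell-like, conventional dendritic cell-like and erythroid-like cells, which held most Irf4 and Zbtb46 UMIs. In the neutrophil classes used, Irf4 had 0 UMIs and Zbtb46 at most 2 UMIs a class, so these 2 values rest on few counts.

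The implanted and non-implanted libraries were compared in 7 classes with at least 100 cells in each library, as log2((CPM + 5)/(CPM + 5)), in which the added 5 CPM understates changes of low genes. A gene was measured with at least 20 UMIs and counted as higher or lower past 1.5-fold. Of 70 gene and class pairs, 38 were measured, 1 was higher and 2 were lower, all 3 in macrophage-like cells. In cycling precursors 0 of 6 measured genes passed in either direction, where 0.996% of all genes measured were higher and 0.864% lower. In immature cells 0 of 6 passed (1.04% of all genes higher, 1.16% lower), in transitional cells 0 of 4 (5.09% and 3.53%), in mature cells 0 of 5 (2.03% and 1.88%), in activated cells 0 of 4 (4.50% and 4.75%), and in monocyte-like cells 0 of 7 (2.65% and 2.37%). In macrophage-like cells 1 of 6 was higher and 2 of 6 lower, where 11.1% of 9110 genes were higher and 10.8% lower, so calls were common in that class whatever the gene. The median log2 ratio of all genes lay between -0.01 and 0.03 in the 7 classes.

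Klf4 in macrophage-like cells had 588 UMIs implanted and 185 UMIs non-implanted, a ratio of 2.01 (interval 1.70 to 2.38). The cluster led by Mmp12, with 64 implanted and 3 non-implanted cells, carried 371 of the implanted UMIs. Without it the levels were 263 CPM implanted and 194 CPM non-implanted, a ratio of 1.35 (1.11 to 1.65), which is under 1.5-fold. Without the mixed barcodes the ratio was 2.44 (1.99 to 3.00), without both it was 1.68 (1.33 to 2.13), and in the 3 clusters that held no mixed barcode it was 1.86 (1.42 to 2.45), from 145 and 88 UMIs. Of these clusters, the Ccl12 one held 142 Klf4 UMIs over both libraries, the Mertk one 69 and the Itga9 one 22. As given above, the libraries lay far apart in the Ccl12 cluster and close together in the Mertk cluster. In monocyte-like cells Klf4 lay the other way, with 902 UMIs implanted and 995 UMIs non-implanted and a ratio of 0.796 (0.726 to 0.872). Both values rest on 1 library a group.

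Cebpe in macrophage-like cells had 85 UMIs implanted and 107 UMIs non-implanted, a ratio of 0.502 (0.373 to 0.673), but only 10 implanted and 6 non-implanted UMIs without the mixed barcodes, too few to be measured. Of 12 secondary granule genes measured in that class, 0 were higher and 8 lower, where 11.1% of all genes were higher and 10.8% lower. Camp was among the lower ones, with 4535 CPM implanted and 9443 CPM non-implanted. Camp, Ngp, Ltf and Lcn2 are in this list and also define the mixed barcodes. The list was not counted without those barcodes. Cebpd had 131 CPM implanted and 202 CPM non-implanted, a ratio of 0.651 (0.532 to 0.797). Without the Mmp12 cluster its ratio was 0.936 (0.752 to 1.16), and without mixed barcodes too it was 1.12 (lower bound 0.840). Cebpb was 1.31 times as high in implanted macrophage-like cells (1.21 to 1.42), and Spi1 and Cebpa had ratios of 1.08 (0.955 to 1.22) and 1.15 (0.929 to 1.42).

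In the neutrophil classes with at least 100 cells in each library, the libraries lay close together for the measured genes. Among these pairs the largest ratio was that of Cebpb in cycling precursors, with 1855 UMIs implanted and 1514 UMIs non-implanted. It was 1.51 (1.41 to 1.61), with a log2 ratio of 0.58 after adding 5 CPM, just under the threshold. Under other processing that log2 ratio ran from 0.38, with each cell thinned to 1000 UMIs, to 0.60, with the same weight for every cell. Cebpd was 1.13 times as high in implanted immature cells (1.04 to 1.23) and 0.801 times as high in implanted activated cells (0.690 to 0.928). Gfi1 had a ratio of 1.02 (0.793 to 1.32) in cycling precursors, and Cebpe one of 1.05 (0.996 to 1.10) there and of 0.987 (0.917 to 1.06) in immature cells. The 10 neutrophil ratios of Spi1 and Cebpe lay between 0.873 and 1.08.

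Classes with fewer cells are given as values only. In dendritic cells Zbtb46 had a ratio of 2.34 (1.43 to 3.86), Irf4 0.314 (0.0941 to 0.831), Cebpa 0.480 (0.251 to 0.867) and Klf4 1.38 (1.10 to 1.75), in 33 implanted and 54 non-implanted cells. The subclusters were unevenly filled: the Cd209a one had 12 implanted and 22 non-implanted cells, the H2-Eb1 one 6 and 21, and the Fscn1 one 15 and 11. In promyelocyte-like cells Gfi1 had a ratio of 1.03 (0.657 to 1.64) and Cebpe 0.969 (0.860 to 1.09). Klf4 there had a ratio of 2.07 (lower bound 0.943), from 27 implanted and 9 non-implanted UMIs.

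**Figure D4:**
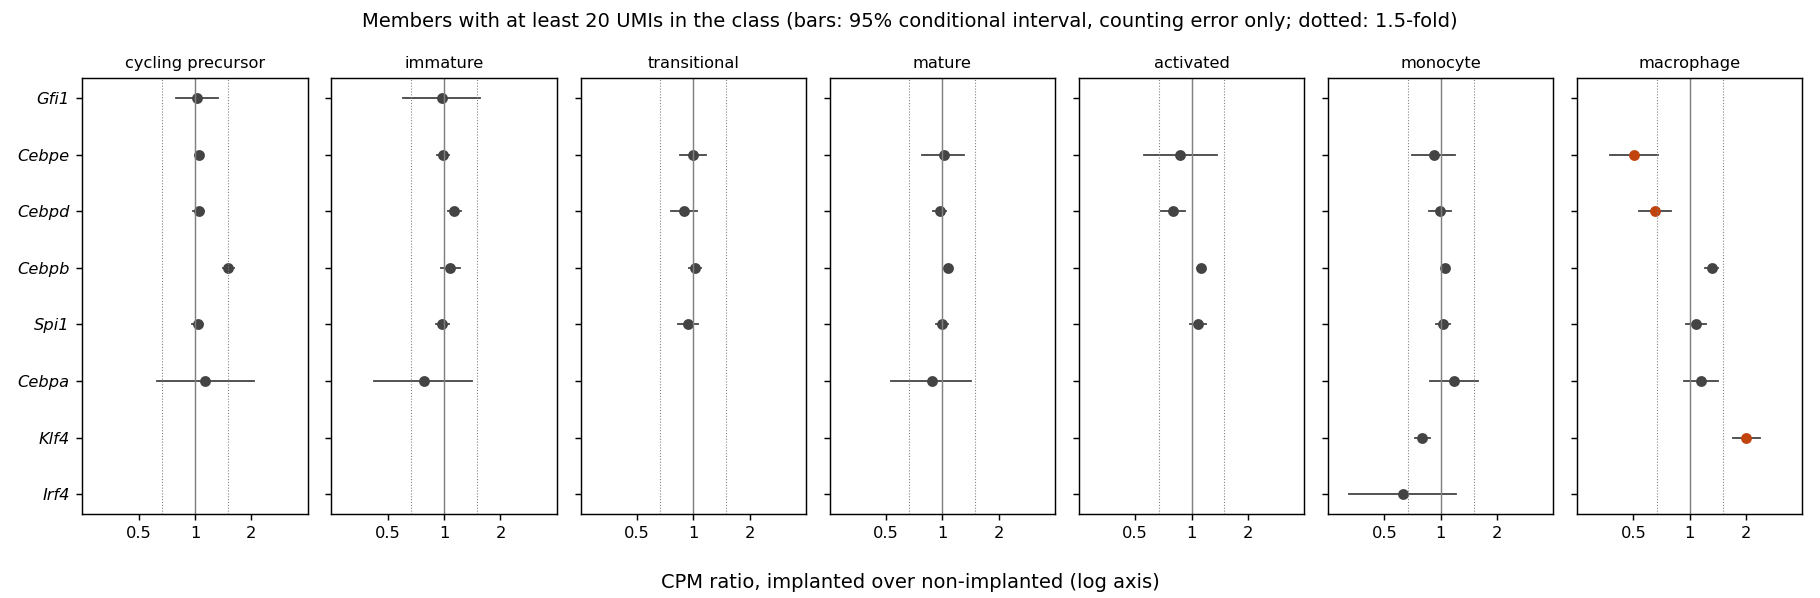
CPM ratio of implanted over non-implanted on a log axis for the 38 measured pairs of gene and class, with 95% conditional intervals for counting error. Calls were made on log2((CPM + 5)/(CPM + 5)), so a point can pass the dotted 1.5-fold line without a call, and the 3 coloured points are those past it: Klf4 higher, Cebpe and Cebpd lower, in macrophage-like cells.

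Other regulators were read from lists alongside. The macrophage-like class includes the Mmp12 cluster, with 64 implanted and 3 non-implanted cells. The lists were not read without that cluster, so its part in the macrophage values below was not tested. In macrophage-like cells, where 11.1% of all genes measured were higher and 10.8% lower, 3 of 45 measured lineage factors were higher and 9 lower, with a median log2 ratio of -0.22. Zeb2 and Runx1, the highest, had log2 ratios of -0.11 and -0.05, while Bhlhe40, a helix-loop-helix repressor, had 187 CPM implanted and 31.0 CPM non-implanted and Id3, an inhibitor of helix-loop-helix factors, 71.2 and 24.8 CPM. Of the 6 other interferon regulatory factors measured 1 was higher, Irf7, with 91.4 CPM implanted and 40.3 CPM non-implanted. Of 13 C/EBP and bZIP partners 0 were higher and 2 lower, Batf and Jun, both with a log2 ratio of -0.62. Of 10 cofactors and degraders, Zbtb17 was higher and Ezh2 lower, with log2 ratios of 1.08 and -0.89. Of 8 growth factor receptors 4 were higher and 1 lower: Csf2rb2 had a log2 ratio of 1.19, Il3ra 0.90, Csf3r -0.63 and Csf1r -0.20. Of 14 monocyte and macrophage genes 3 were higher and 5 lower, with Cd68 at 1.03 and Ccr2 at -0.99, and of 8 dendritic cell genes 1 was higher and 5 lower, with Itgax at 3.40 and Ciita at -1.58. Of 6 primary granule genes 2 were higher, Elane with 67 implanted and 6 non-implanted UMIs and Cst7 with 30 and 3. Without mixed barcodes, 11 of the 73 Elane UMIs and 32 of the 33 Cst7 UMIs were left.

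In monocyte-like cells 2.65% of all genes measured were higher and 2.37% lower. Of 41 lineage factors 2 were higher and 0 lower, Egr2 with a log2 ratio of 0.68 from 23 implanted and 9 non-implanted UMIs and Relb, an NF-kappa B subunit of dendritic cells, with 0.65. No interferon regulatory factor of 6, no C/EBP or bZIP partner of 13, no cofactor of 9 and no receptor of 9 passed in either direction. Of 7 primary granule genes 0 were higher and 3 lower, among them Elane and Ctsg with log2 ratios of -0.86 and -0.77. Of 13 secondary granule genes 2 were lower, Itgb2l at -0.73 and Orm1 at -0.61, and of 14 monocyte and macrophage genes 2 were higher, C1qb at 0.96 and Fcgr1 at 0.60. In activated neutrophil-like cells, where 4.50% of all genes measured were higher and 4.75% lower, of 13 C/EBP and bZIP partners Batf was higher and Jun lower, with log2 ratios of 0.68 and -0.99. Of 32 lineage factors there only Egr2 passed, at -0.73, and of 9 monocyte genes 3 were higher, among them Cd14 with 685 CPM implanted and 351 CPM non-implanted. Of 5 dendritic cell genes 3 were lower, Cd74, H2-Aa and H2-Ab1, with log2 ratios of -1.26, -1.75 and -1.62. Whether the neutrophil-like cells themselves made these transcripts was not tested.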

How the data were processed

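The deposited matrices are raw UMI counts. Per the file headers they are output of Cell Ranger 3.0.1. Seurat and the build mm10 (GRCm38) appear in the submitters' processing notes. Whether counting used strand is not given in the sources used here. The labels carry a tissue protocol that differs from the series design text, so neither dissociation is described. Barcodes needed at least 200 genes and at most 10% mitochondrial UMIs (82 implanted and 59 non-implanted removed). Scrublet in scanpy 1.11.5 scored doublets, and the highest scores were removed, at 0.8% per 1000 barcodes (84 and 102). The 107 rows that name no gene held 11 UMIs in each library and were left out. Counts were normalized per cell, and 2000 variable genes without the 10 members, 30 components and 15 neighbours gave 18 Leiden clusters (leidenalg 0.10.2, resolution 1). Splitting 3 of them gave 30, named from marker lists by at least 3 markers at 2-fold. UMIs were summed per class and library, with exact Poisson, conditional or Clopper-Pearson intervals (scipy 1.17.1). The summing and calling steps were tested on simulated data. PCR and cell capture were not replicated: 1 library per group allows no test. Library depth was 18479918 implanted and 20390137 non-implanted UMIs in kept cells. All 10 members are described. Where the libraries are compared, up to 4 genes of each list are named, the 2 highest and the 2 with the largest log2 ratio. For likeness the 3 with the highest r are named. The regulators under other observations were not picked by this rule. The members and lists were chosen with earlier results of these data known.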

Additional observations from a re-analysis of the deposited data

Results flagged for a closer look

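These 3 results were picked out because the implanted library lay above the non-implanted one in 1 class and below it in another, with 95% counting intervals that left out a ratio of 1 in both. With 1 library per group the differences were not tested. For Klf4, the log2 ratio in macrophage-like cells minus that in monocyte-like cells was 1.31; most implanted Klf4 UMIs of the macrophage-like class, 371 of 588, lay in the Mmp12 cluster. For Cebpd, the log2 ratio in immature minus that in activated neutrophil-like cells was 0.49, and the activated value was -0.32; it was 0.04 with no doublets removed and 0.12 with more variable genes. For Cebpd, the log2 ratio in immature neutrophil-like minus that in macrophage-like cells was 0.78, and the macrophage value was -0.60; it was -0.09 without the Mmp12 cluster and 0.16 without that cluster and mixed barcodes.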

How the results depend on the processing

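The count of gene and class pairs at least 1.5-fold higher, 1 as reported, was 2 with no doublets removed, with at least 500 genes and at most 5% mitochondrial UMIs, with more variable genes and components, with each cell thinned to 1000 UMIs, with the same weight for every cell, without the cell with the most UMIs of the gene in each library, with a pseudocount of 1 CPM and with no UMI minimum. It was 3 with 2 times as many doublets removed and 4 with each library clustered separately. The count of lower pairs, 2 as reported, was 4 with the stricter cell filter, with more variable genes and with no UMI minimum, 5 with separate clustering, and 1 with more doublets removed, at Leiden resolution 2, with equal cell weights, without the top cell and with a pseudocount of 20 CPM. Among alternatives added after seeing the data, leaving out mixed barcodes gave 2 higher, Klf4 in macrophage-like and Cebpe in monocyte-like cells (0.72), and 1 lower, Irf4 in monocyte-like cells (-0.59). Neither reported lower pair was then past 1.5-fold: Cebpd lay at -0.44, and Cebpe had under 20 UMIs. Leaving out the Mmp12 cluster gave 0 higher and 1 lower, leaving out the Retnla cluster gave 2 higher, and leaving out the Mmp12 cluster with the mixed barcodes, or keeping the clusters that held no mixed barcode, gave 0 lower. Cebpe in macrophage-like cells reversed to a log2 ratio of 0.0583 with more variable genes and components, and Cebpd there reversed to 0.16 without the Mmp12 cluster and mixed barcodes; the cause was not tested. The log2 ratio of Klf4 in macrophage-like cells was above 0 in every alternative run, from 0.43, under 1.5-fold, without the Mmp12 cluster to 1.29 after thinning. Cebpd in activated cells, with no call, lay at 0.04 with no doublets removed and at 0.12 with more variable genes. Of the ratios under the alternatives chosen at the start, 518 moved by less than their counting interval, 45 moved further and 1 reversed. The 518 include 38 each with no UMI minimum and with at least 50 UMIs, settings that could not change a ratio. Of the class levels under those alternatives, 375 stayed within their counting interval and 197 moved out of it. Of the 9 genes with UMIs, 6 kept their highest class at Leiden resolution 2, and 6 did with more variable genes. Class sizes moved too: with no doublets removed, promyelocyte-like cells numbered 123 implanted and 144 non-implanted. With each library clustered separately, immature cells numbered 53 implanted and 707 non-implanted, and conventional dendritic cell-like cells 31 and 0. Depth limits Irf4, Zbtb46 and Gfi1 most, with 198 Irf4 UMIs in all. No paired analysis was possible because each group has 1 library.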

Other observations

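Beyond the 10 members, a few regulators, most known for other branches, are given as values over both libraries. They were picked from the lists by name, and the other list genes are not described here. Gata1 and Gfi1b, factors of the erythroid line, had 243 and 190 CPM in erythroid-like cells, and Gata1 had at most 0.563 CPM in the 6 neutrophil classes. Tcf4, the factor of plasmacytoid dendritic cells, had 6647 CPM in the 10 plasmacytoid dendritic cell-like cells and 268 CPM in conventional dendritic cell-like cells; it is one of the markers that named that class. Mitf, needed for osteoclasts, had 811 CPM in osteoclast-like and 383 CPM in macrophage-like cells. Bach2 had 5939 CPM in B cell-like cells and 461 CPM in conventional dendritic cell-like cells. Trib1, an adaptor for the breakdown of C/EBP-alpha, had 53.5 CPM in promyelocyte-like and 578 CPM in activated neutrophil-like cells.

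Zbtb46 in erythroid-like cells was found in 23 of 118 cells over both libraries, a share of 19.5% (interval 12.8% to 27.8%), against 2 of 1815 mature neutrophil-like cells, and no B cell-like cell held a Zbtb46 UMI. Without mixed barcodes its level was 39.9 CPM in implanted and 58.4 CPM in non-implanted erythroid-like cells.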
